A study of Mus musculus with 2 samples.

Results

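DNA replication and mitosis genes were examined in differentiated C2C12 cells, a mouse myoblast line that fuses into multinucleated myotubes when serum is lowered, with a hairpin against Lrrfip1 or with a control hairpin. The set held 40 genes listed by symbol, 13 of DNA replication, 3 that regulate the step from G1 to S phase and 24 of mitosis. All probe sets (groups of short array probes that read 1 transcript region) with a listed gene as their single symbol were taken, which gave 89 probe sets of 39 genes among 45101 probe sets and 18193 genes. Ccnb1 had no such probe set. Both cultures were expanded with 10% fetal bovine serum, then held for 5 days with 2% horse serum, and 6 ug of total RNA went into labelling. The groups were 1 array of cells labelled shLrrfip1a and 1 array of control cells, labelled shLCUI on the sample and shLUCI in the series text. The sources used here do not say how the hairpins were delivered or whether a culture was 1 clone. With 1 array per group there is no replicate check, no p-value and no error between cultures, and differences are described by size and direction.

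Cells prepare replication in G1 by loading the Mcm2 to Mcm7 helicase on origins with the help of Cdc6, and S phase needs deoxynucleotides and the sliding clamp Pcna. Mitosis is driven by Cdk1 with the A and B cyclins, guarded by the spindle checkpoint kinases, and ended by the anaphase-promoting complex. Transcription of the replication genes is classically tied to E2F sites and peaks around the start of S phase. Transcription of the mitosis genes is tied to the CHR promoter element, bound by the DREAM and MMB-FoxM1 complexes, and peaks in G2 and M. Myoblasts leave the cell cycle before they fuse, while a differentiated C2C12 culture also holds mononucleated cells.

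Values are the authors' intensities, or differences of log2(intensity + 16), shLrrfip1a minus control, a scale that understates the change of dim genes. Each gene took the value of its brightest probe set over the array pair, and it was kept if this value exceeded the median probe set, an intensity of 52.5. This kept 38 of the 40 genes and 11439 genes in all. Tyms, which makes thymidylate, stayed below this level on all 4 of its probe sets, the brightest at 28.8 against 31.5 in the control. The targeted gene Lrrfip1 read 62.2% to 70.6% of the control on its 3 probe sets. Of 12 fixed myotube markers 11 were above the level filter, among them Myog (2005 against 2612) and Acta1 (5220 against 5586), and Myh8 was below it. No array of proliferating cells was part of the comparison, so the level left after differentiation could not be set against that of growing myoblasts.

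The replication genes were mostly higher and the mitosis genes mostly lower in the shLrrfip1a array. Of 12 replication genes above the filter 9 were higher, with a median difference of 0.17. Of 23 mitosis genes 20 were lower, with a median of -0.17. The 3 G1/S regulators were all higher (median 0.18). Over all 11439 genes 50.7% were higher and 49.3% lower, with a median of 0.00432, so 75% of replication genes and 87.0% of mitosis genes lay on their side of 0. In such bulk RNA, fewer cells in a phase and less RNA per cell cannot be told apart. As a sign of RNA quality, probe sets at the 3′ end of beta-actin exceeded those at its 5′ end by 0.52 (log2) in shLrrfip1a and by 0.74 in the control, and the same values for Gapdh were -0.035 and 0.000087. The part of this difference in the results was not tested.

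The differences were small for single genes. On the scale of intensity + 16, a difference of at least 25% upward (0.32 in log2) was reached by 1 of the 38 genes, Mcm7 (2.63%), against 9.62% of all genes. With a pseudocount of 1 there were 2, since Cdc6 read 127% of the control without a pseudocount. The matching step downward, 20%, was reached by 3, Cenpf, Ccnb2 and Bub1 (7.89%), against 9.69%. Pooled over both lists, the members did not pass this size more often than other genes. By list, 3 of 23 mitosis genes were at least 20% lower (13.0%, against 9.69%). Of 12 replication genes 1 was at least 25% higher (8.33%, against 9.62%). None reached 1.5-fold, which 2.34% of all genes did upward and 2.47% downward, or 2-fold, where the shares were 0.664% and 0.691%. Over all genes single differences ran from -0.15 at the 25th percentile to 0.16 at the 75th.

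**Figure D1:**
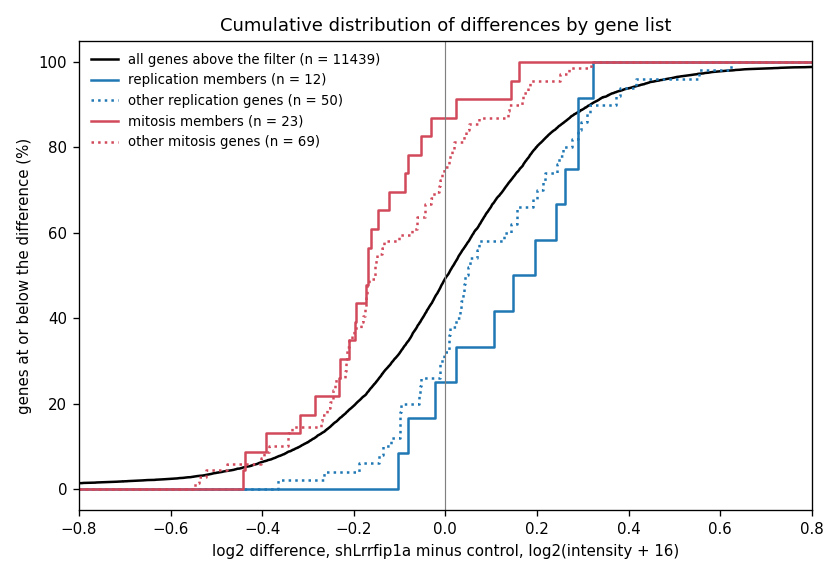
Cumulative share of genes (%) against the log2 difference, shLrrfip1a minus control, for all genes above the level filter (black), replication genes (blue) and mitosis genes (red), with members as solid and other listed genes as dotted lines. The curve of the 12 replication members lies to the right of that of all genes over most of its range, and the curve of the 23 mitosis members rises to 87.0% before it reaches 0.

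The distance between the median of the replication genes and that of the mitosis genes was 0.34 on the log2 scale, a ratio of 1.27. All 12 replication genes lay above the mitosis median and all 23 mitosis genes lay below the replication median. The ranges still overlapped. Replication genes ran from -0.10 to 0.32 and mitosis genes from -0.44 to 0.16, with 6 replication genes above the highest mitosis gene and 16 mitosis genes below the lowest replication gene. Genes of 1 array pair are not independent replicates, so no test was made of this distance.

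**Figure D2:**
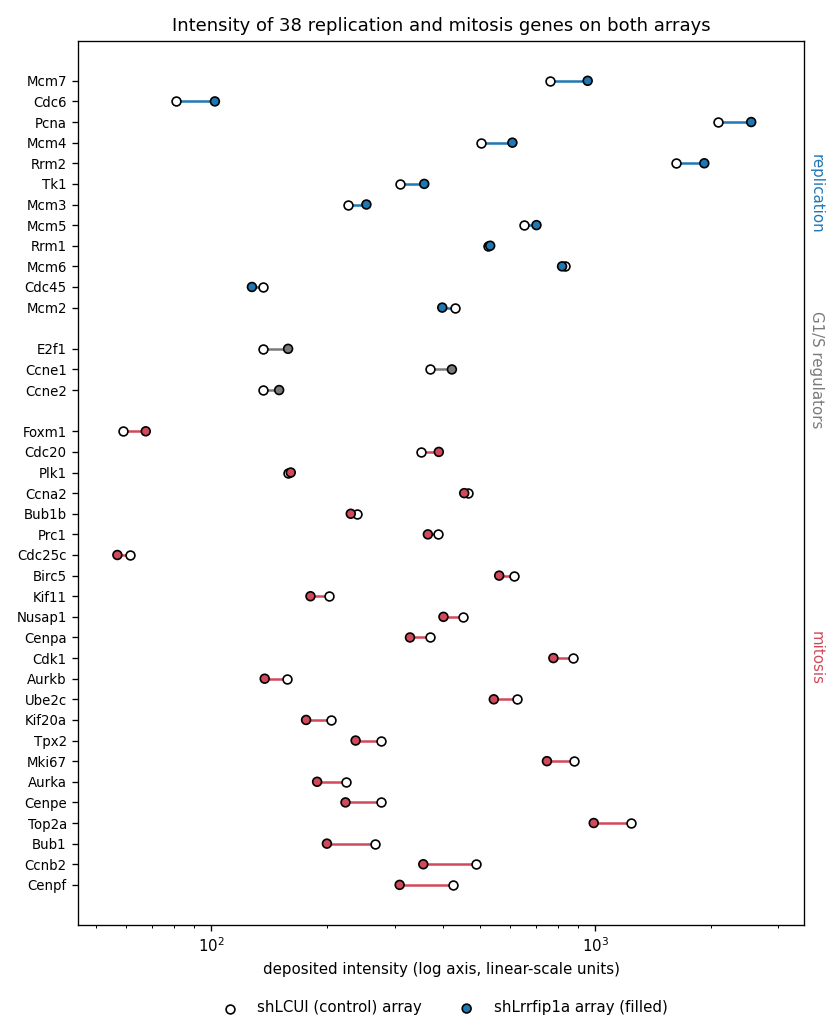
Deposited intensity (log axis) of the chosen probe set of each of 38 genes in the control array (open circles) and the shLrrfip1a array (filled circles), in blue for replication genes, grey for G1/S regulators and red for mitosis genes. The filled circle lies to the right in 9 of 12 replication genes and to the left in 20 of 23 mitosis genes.

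Among the helicase genes, Mcm7 had the largest difference, at 956 in shLrrfip1a against 761 in the control (0.32). It was higher on all 4 of its probe sets, the others differing by 0.33, 0.22 and 0.21. Mcm4 read 608 against 505 (0.26), and 188 against 124 (0.54) on its other probe set. These were the helicase genes with more than 1 probe set that were higher on every one above the filter. Mcm2, another ring subunit, was lower on both probe sets, at 399 against 430.3 (-0.10) and 212 against 217 (-0.03). Mcm3, Mcm5 and Mcm6 had probe sets on both sides of 0. Mcm5 differed by 0.11 (703 against 651) on 1 and by -0.02 on the other, and Mcm6 by -0.02 (819.6 against 832), 0.09 and 0.45. For Mcm3 the chosen probe set differed by 0.15 (253 against 227) and the others above the filter by 0.08, -0.05 and -0.05. Over the 6 helicase genes the median was 0.13.

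Cdc6, which loads the helicase, read 102 against 80.6 (0.29). Cdc45, which joins the active helicase at the fork, had 1 probe set lower (127 against 136, -0.08) and 1 higher (78.1 against 68.2, 0.16). The clamp gene Pcna read 2549.8 against 2084 (0.29). Both loading factor and clamp were thus higher, each on its only probe set.

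The 3 nucleotide supply genes above the filter were higher. Tyms, below it, differed by -0.08 on its brightest probe set and by 0.13, 0.38 and 0.18 on its others. Rrm2, the subunit of ribonucleotide reductase that is limited to S phase, was higher on all 3 probe sets, at 1924 against 1625 (0.24), 1266 against 1041 (0.28) and 657 against 525 (0.32). Rrm1, the large and more stable subunit, was nearly level, at 532 against 524 (0.02) and 369.8 against 356 (0.05). Its chosen probe set turned to -0.035 with median centring, where the median of all genes was -0.050. Tk1, the thymidine kinase of the salvage pathway, read 358 against 311 (0.20). The G1/S regulators had like differences on their chosen probe sets. The transcription factor E2f1 read 158 against 136 (0.19), the Cdk2 partner Ccne1 423 against 371 (0.18) and its paralog Ccne2 150.1 against 136 (0.13). E2f1 and Ccne1 were level on another probe set each, with differences of -0.01 and -0.0029.

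The choice of probe set bears on the replication result. On this kind of array a suffix _s_at or _x_at marks a probe set that can also bind other transcripts, and 5 of the 12 chosen replication probe sets carried one, against 2 of 23 for mitosis. With these left out, an alternative added after the data were seen, 7 of 12 replication genes were higher with a median of 0.11, while the mitosis median stayed at -0.17. With probe sets of a plain _at suffix alone, 5 of 10 replication genes were higher and their median was 0.00040, against -0.17 for mitosis, where 15 of 18 were lower. With all probe sets of a gene averaged, 11 of 12 replication genes were higher (median 0.18). The mitosis median was thus -0.17 under each of these choices of probe set, while the replication median ran from 0.00040 to 0.18.

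**Figure D3:**
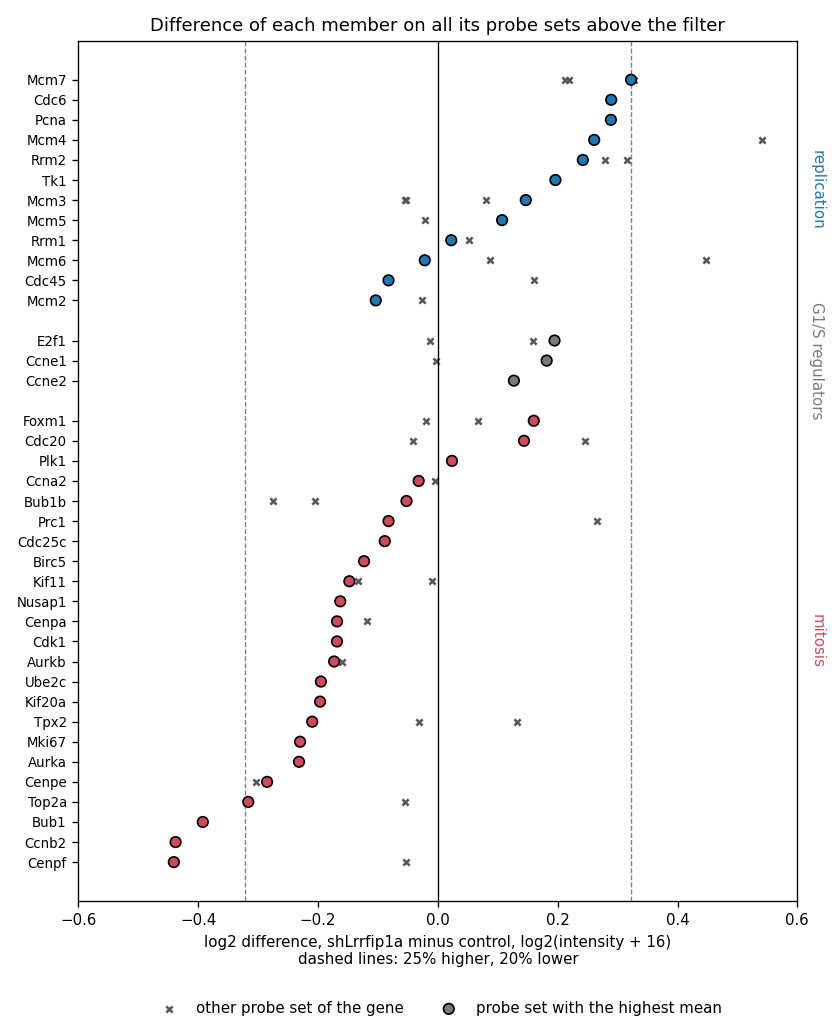
Log2 difference, shLrrfip1a minus control, of every probe set above the level filter for 38 genes, with the chosen probe set as a filled circle (blue replication, grey G1/S regulators, red mitosis) the gene's other probe sets as crosses and dashed lines at 25% higher and 20% lower. Among probe sets, 20 of 27 of replication genes lie above 0 and 33 of 40 of mitosis genes lie below it, and Mcm3, Mcm5 and Mcm6 have probe sets on both sides. Over all genes, each counted once, 50.7% lie above 0 and 49.3% below it.

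Counted by probe set, 20 of 27 of replication genes were higher (median 0.16) and 33 of 40 of mitosis genes lower (median -0.13). Genes with more probe sets weigh more here, such as Mcm7 with 4 and Rrm2 with 3. Over all genes, each counted once, 50.7% were higher and 49.3% lower, and no such share was counted over all probe sets. Every probe set pointed the same way in 5 of 9 replication genes with several of them, 4 higher and 1 lower, and in 8 of 12 mitosis genes, all 8 lower. Over all 4847 genes with several probe sets above the filter 60.3% had such agreement in either direction, 1448 with every probe set higher and 1474 with every one lower. The 56.5% of all members was near this share for either direction, with 55.6% in replication and 66.7% in mitosis genes. For 1 direction the like counts are 8 of 12 mitosis genes beside 1474 of 4847 genes, lower on every probe set. Upward they are 4 of 9 replication genes beside 1448 of 4847 genes. Since they read 1 RNA sample, the probe sets of a gene are not replicates.

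The promoters of Mcm7 and Cdc6 are shown because these were the replication genes with the largest differences whose promoter window held an E2F-type site. The windows run from 250 bases before to 50 after the annotated start in RefSeq, build GRCm38.p6, and capitals mark the E2F-type matches. Mcm7 lies at chr5:138171834-138172133 on the minus strand and has matches at positions -165 and 17 from the start. A further Mcm7 window, of another start, held none. Cdc6 lies at chr11:98907901-98908200 on the plus strand and has a match at position -138.
Mcm7: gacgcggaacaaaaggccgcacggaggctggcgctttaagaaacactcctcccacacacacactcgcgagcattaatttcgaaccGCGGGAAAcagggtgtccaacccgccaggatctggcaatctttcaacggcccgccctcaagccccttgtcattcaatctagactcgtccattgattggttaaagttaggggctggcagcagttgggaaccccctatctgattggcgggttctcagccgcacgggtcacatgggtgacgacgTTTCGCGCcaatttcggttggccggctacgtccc
Cdc6: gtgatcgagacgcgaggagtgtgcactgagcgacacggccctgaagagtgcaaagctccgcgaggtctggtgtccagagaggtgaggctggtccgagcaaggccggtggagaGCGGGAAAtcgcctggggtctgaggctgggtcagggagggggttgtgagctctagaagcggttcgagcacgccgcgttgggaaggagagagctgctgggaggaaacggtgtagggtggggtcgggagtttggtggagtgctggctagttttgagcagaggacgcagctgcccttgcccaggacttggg

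Among the cyclins and their kinase, Ccnb2, a B-type cyclin, was lowest, at 356 against 488 on its single probe set (-0.44). Cdk1, the kinase that B cyclins activate, read 778 against 876 (-0.17). Ccna2, which acts in S phase as well as G2, was nearly level on both probe sets, at 456 against 466 (-0.03) and 337 against 338 (-0.0043). The cyclin genes thus differed in size, with the B-type cyclin farther below the control than the A-type. Cdc25c, the phosphatase that activates Cdk1, was dim, at 56.9 against 61.5 (-0.09). Foxm1, which activates G2 and M genes, read 67.4 against 58.7 (0.16), and 0.07 and -0.02 on its other probe sets above the filter. It was close to the filter level and was the highest mitosis gene.

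The spindle checkpoint kinase genes Bub1 and Bub1b were both lower. Bub1 read 199.9 against 267 (-0.39), and Bub1b read 231 against 239.8 (-0.05), 156 against 192 (-0.28) and 48.3 against 58.1 (-0.21). Of the mitotic kinases, Aurka, which acts at spindle poles, read 188 against 224 (-0.23). Aurkb, the kinase of the chromosomal passenger complex, was lower on both probe sets (138 against 157, -0.17, and 105 against 119, -0.16). Its partner Birc5 (survivin) read 562 against 614 (-0.12). Plk1, a kinase of mitotic entry and cytokinesis, was level (161 against 158, 0.02).

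The genes of protein destruction at anaphase went in both directions. Cdc20, which activates the anaphase-promoting complex, read 391 against 353 (0.14), with 0.25 and -0.04 on its other probe sets. Ube2c, the ubiquitin-conjugating enzyme of that complex, read 544 against 625 (-0.20).

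On their chosen probe sets all 10 genes of chromosome structure, centromere and spindle were lower (100%, against 49.3% of all genes), with a median of -0.20. Cenpf, a large kinetochore protein that accumulates in G2, had the lowest difference of all members, at 309 against 426 (-0.44), but its other probe set above the filter read 195 against 203 (-0.05). The kinetochore motor Cenpe was lower to a like extent on both probe sets, at 223 against 276 (-0.29) and 125 against 158 (-0.30). Top2a, the topoisomerase that untangles chromosomes, read 991 against 1238 (-0.32) and 101 against 106 (-0.06). Size thus varied between probe sets of a gene, with direction shared in these 3 on the probe sets above the filter. Below it, Top2a had a probe set at 19.4 against 13.2 (0.28) and Cenpf 1 at 43.5 against 43.0 (0.011).

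The proliferation marker Mki67, which coats mitotic chromosomes, read 749 against 881 (-0.23). The spindle assembly factor Tpx2 read 237 against 277 (-0.21), but 168 against 152 (0.13) on another probe set. The motor Kif20a of the central spindle read 176 against 204 (-0.20), and the centromeric histone Cenpa 329 against 372 (-0.17). These genes lay close to the list's median. Nusap1, which binds spindle microtubules, read 402 against 452 (-0.16), and the bipolar spindle motor Kif11 181 against 202 (-0.15). Prc1, which bundles midzone microtubules, had its probe sets on opposite sides, at 366 against 389 (-0.08) and 389.9 against 322 (0.27). It was higher with probe sets averaged (0.09) and without _s_at or _x_at probe sets (0.27).

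Cenpf and Ccnb2 were the mitosis genes with the largest differences whose window held a CHR-type element, and their promoters are shown for that reason, with the CHR-type matches in capitals. Cenpf lies at chr1:189688037-189688336 on the minus strand, with its match at position 3. Ccnb2 lies at chr9:70421505-70421804 on the minus strand, with matches at positions -167 and 5. In both, a match falls just past the annotated start.
Cenpf: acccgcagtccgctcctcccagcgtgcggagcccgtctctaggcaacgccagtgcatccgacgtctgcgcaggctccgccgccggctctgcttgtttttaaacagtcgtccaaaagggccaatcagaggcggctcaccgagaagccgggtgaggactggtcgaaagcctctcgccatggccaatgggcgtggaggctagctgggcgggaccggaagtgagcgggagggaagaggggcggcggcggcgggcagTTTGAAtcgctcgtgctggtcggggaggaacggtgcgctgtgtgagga
Ccnb2: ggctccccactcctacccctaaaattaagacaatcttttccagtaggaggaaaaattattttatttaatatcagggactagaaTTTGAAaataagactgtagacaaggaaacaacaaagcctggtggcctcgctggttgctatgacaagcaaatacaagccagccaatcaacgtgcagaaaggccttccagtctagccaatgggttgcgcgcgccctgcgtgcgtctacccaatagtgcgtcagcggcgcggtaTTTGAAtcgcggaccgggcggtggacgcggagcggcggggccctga

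The promoter windows of replication and mitosis genes differed in the motifs they held. Of the 40 genes 32 had a window by symbol, among 27025 genes. An E2F-type site was searched as TTTCGCGC or TTTGGCGC or TTTCCCGC or TTTGCCGC, a CHR-type element as TTTGAA or TTCGAA, and the box of the factor NF-Y as CCAAT, on either strand. TTCGAA reads the same on both strands and was counted once, the motifs were counted independently where they overlap, and a gene with several windows counted as having a motif if any held it. E2F-type sites were found in 5 of 12 replication genes (Mcm3, Mcm5, Mcm6, Mcm7 and Cdc6) and in 1 of 18 mitosis genes (Cdk1). The share was 41.7% and 5.56%, against 2.60% of all genes and 4.75% of the genes above the level filter. The 2 G1/S regulators with a window, E2f1 and Ccne1, held no E2F-type site, CHR-type element or CCAAT box. Only the exact words given were searched, so other forms of a site were not counted.

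CHR-type elements were found in 14 of 18 mitosis genes (77.8%) and in 3 of 12 replication genes (25%), against 21.7% of all genes and 16.2% of those above the filter. Within 50 bases of the start the element was present in 13 mitosis genes (72.2%) and 1 replication gene (8.33%), against 6.35% of all genes. CCAAT boxes were common in both lists, in 75% of replication and 88.9% of mitosis genes against 41.1% of all genes. Mitosis genes with a CHR-type element were lower in 12 of 14 cases (median -0.18) and those without in 3 of 3 (median -0.16). Replication genes with an E2F-type site were higher in 4 of 5 (median 0.15) and those without in 4 of 6 (median 0.11). Replication genes with a CHR-type element were higher in 1 of 3 (median -0.08) and those without in 7 of 8 (median 0.17). In the longer lists of other genes given below, the medians of each of these splits lay in the opposite order. A match describes letters in a window and does not show binding.

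**Figure D4:**
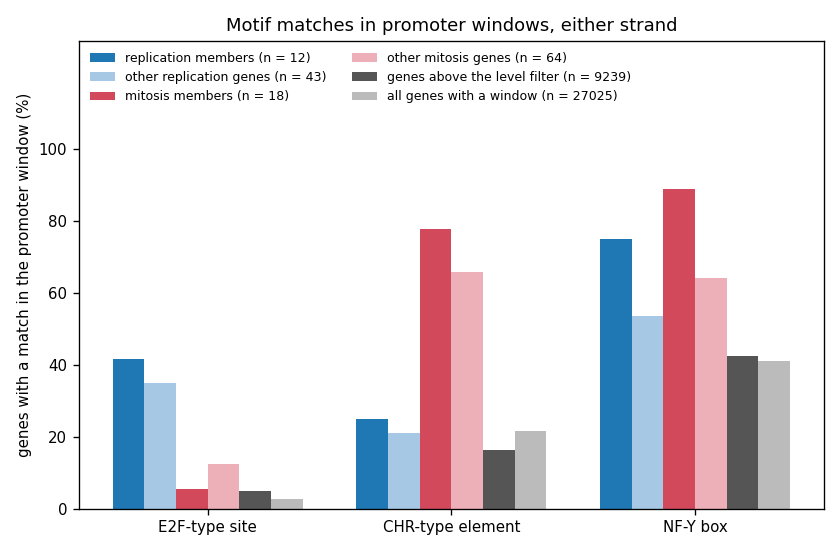
Share of genes (%) whose promoter window holds an E2F-type site, a CHR-type element or an NF-Y box, for replication members and other replication genes (blue shades), mitosis members and other mitosis genes (red shades), genes above the level filter (dark grey) and all genes with a window (light grey). The E2F-type share is 41.7% in replication members and the CHR-type share 77.8% in mitosis members.

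Other genes of both processes, listed by function but with earlier results of these arrays known, lay on the same sides with a smaller distance. They are no independent check of the members. Of 50 other replication genes above the filter 34 were higher (68.0%, against 50.7% of all genes), with a median of 0.05. At least 25% higher were 5 of them (10.0% against 9.62%), and 1 was at least 20% lower (2% against 9.69%). The largest differences were those of Uhrf1, which maintains DNA methylation behind the fork (469 against 299, 0.62), the origin recognition subunit Orc6 (741 against 499, 0.55) and the uracil glycosylase Ung (67.0 against 46.2, 0.42). Uhrf1 was higher on both of its probe sets. The sign of this list's median turned with median centring, to -0.0082, where the median of all genes was -0.050 and 58.5% of them were lower.

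Of 69 other mitosis genes above the filter 52 were lower (75.4%, against 49.3% of all genes), with a median of -0.15. At least 20% lower were 10 of them (14.5% against 9.69%), and none was at least 25% higher (against 9.62%). Cep55, which acts in the final cut of cytokinesis, read 256 against 381 (-0.55), the kinesin Kif2c 162 against 243 (-0.54) and the checkpoint kinase Ttk 148 against 220.0 (-0.52). Ttk's other probe set above the filter differed in the opposite direction. With scaling to the B. subtilis controls this list's median turned to 0.050, with 44 higher and 25 lower, while 80.8% of all genes were higher (median 0.21). With all controls 33 were higher and 36 lower, while 75.1% of all genes were higher (median 0.16). The distance between the medians of the other replication and other mitosis genes was 0.20. CHR-type elements were present in 65.6% of these mitosis genes with a window and 20.9% of the other replication genes, and E2F-type sites in 12.5% and 34.9%. The other mitosis genes with a CHR-type element had a median of -0.15, and those without -0.18. Among the other replication genes the median was 0.13 with a CHR-type element and 0.07 without, and 0.03 with an E2F-type site and 0.16 without.

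The factors that control both programmes showed no common direction. Of 18 genes of the E2F, Rb and DREAM families above the filter 8 were higher and 10 lower (median -0.02), with E2f2 at 196 against 259.8 (-0.38), E2f6 at 195 against 257 (-0.37) and E2f8, a repressor, at 291 against 358 (-0.29). Mybl2, the Myb subunit of the complex that activates mitosis genes, was below the filter. Of 15 genes of the anaphase-promoting complex 7 were higher and 8 lower (median -0.0029), with Cdc16 at 763 against 951 (-0.31), Anapc10 at 914 against 743 (0.29) and Cdc27 at 389 against 457 (-0.22).

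Markers of the cell states that a differentiated culture can hold also differed between the arrays. Of 11 myotube markers above the filter 8 were lower (72.7%, against 49.3% of all genes), with a median of -0.10. Actc1 (1725 against 2293, -0.41) and Myog (-0.38) were the lowest of these markers, while Ckm was higher (422 against 321, 0.38). The summed intensity of the 11 markers was 20567 against 22452. Of 9 markers of undifferentiated myoblasts above the filter 4 were higher (44.4%, against 50.7% of all genes) and 5 lower. Id3 was at 516 against 178 (1.46), Id1 at 344 against 216 (0.63) and Myf5 at 82.8 against 159 (-0.83). The 9 markers summed to 3005 against 2692. Pax7, the defining gene of muscle stem cells, was below the filter, with a highest reading of 22.6 against 70.4. Of 10 fibroblast markers 7 were above the filter, 4 higher (57.1%, against 50.7% of all genes) and 3 lower, with Dcn (3497 against 260.4, 3.67), Fbln1 (571 against 160.3, 1.73) and Col1a1 (1384 against 1854, -0.42). Lum, Fap and Tcf21 were below it. The 7 summed to 20735 against 17518. Dcn alone differed by more than this sum did, and Id3 alone by more than the sum of the undifferentiated myoblast markers. No marker was listed at 0. The part of these markers in the replication and mitosis differences was not tested.

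The side of 0 on which the mitosis median lay changed with scaling to the B. subtilis controls. The distance between the lists was 0.34 with median centring, 0.36 with quantile normalization and 0.35 with a loess trend removed. Of 42 bacterial and phage controls 38 read lower with shLrrfip1a, and scaling to them added 0.15 to every gene, by which 75.1% of all genes were higher and 24.9% lower. On that scale 12 of 12 replication genes were higher (median 0.32) and 14 of 23 mitosis genes lower (median -0.017). The B. subtilis controls, which are added to the RNA, gave a shift of 0.20 and a split of 80.8% higher and 19.2% lower, and then 8 of 23 mitosis genes were lower (median 0.03). The E. coli and P1 controls, which are added at hybridisation, gave 0.08 and a split of 65.8% and 34.2%, with 17 of 23 mitosis genes lower (median -0.08). Each of these 3 scalings adds 1 constant to every gene, so the distance between the lists, and of each from the median of all genes, cannot change with them.

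**Figure D5:**
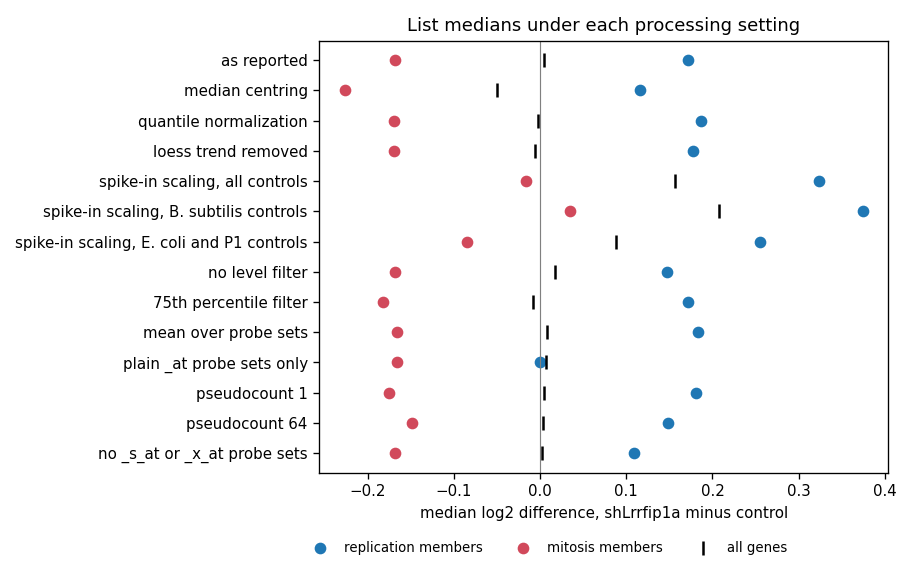
Median log2 difference, shLrrfip1a minus control, of replication members (blue), mitosis members (red) and all genes above the filter (black bars) under the reported processing and 13 alternatives. The blue point lies to the right of the red point in every row, the distance is smallest, 0.17, with plain _at probe sets, and the 3 spike-in scalings move all points to the right together.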

How the data were processed

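The authors deposited 1 linear-scale intensity for each Affymetrix probe set of each array, with a floor of 1. Medians were 53.5 (shLrrfip1a) and 51.4 (control). How the authors summarised, background-corrected and scaled them is not stated in the labels or headers used here, nor are detection calls. Biotin-labelled cRNA was prepared by the standard protocol of the manufacturer, per the labels' protocols. Of 45101 probe sets, 34945 carried 1 gene symbol in the platform annotation, and 64 were controls. The 39 symbols matched GRCm38.p6 by gene identifier.

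From these intensities, log2(intensity + 16) was taken per array, with Python 3.11.15, numpy 2.4.6, pandas 2.3.3 and statsmodels 0.14.6. A gene was its probe set with the highest mean log2 value, above the 50th percentile of probe sets. Sizes of 25% upward or 20% downward, 1.5-fold and 2-fold were counted. Named were all members, Lrrfip1 and, of each other list, the 3 genes with the largest absolute difference above the filter, with examples. Printed promoters are the 2 members per list with the largest absolute difference and a motif of their class. The steps were tested on simulated data. Precision is limited by 1 array per group. The members and lists were chosen with earlier results of these data known. Alternatives covered scaling, filter, probe set, pseudocount and fold.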

Additional observations from a re-analysis of the deposited data

How the results depend on the processing

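No paired analysis was possible because there was 1 array in each group, for which reason no replicate was left out either. A median counted as moved when it shifted by 0.1 or more. The median of all members, -0.08, turned positive with spike-in scaling, to 0.070 with all controls, 0.12 with the B. subtilis and 0.0015 with the E. coli and P1 controls. The median of all genes was then 0.16, 0.21 and 0.088. The mitosis median moved to -0.017 and 0.034 with all and with the B. subtilis controls, and the replication median to 0.32 and 0.37. With plain _at probe sets the replication median was 0.00040 and its distance to the mitosis median 0.17, against 0.34, while the distance was 0.28 to 0.36 in the other alternatives, where spike-in scaling cannot change it. The 23 lower members became 14 with all spike-in controls and 8 with the B. subtilis controls. The 1 member at least 25% higher became 0 with median centring, loess, plain probe sets, no _s_at or _x_at probe sets or a pseudocount of 64, 2 with a pseudocount of 1, and 8, 12 and 5 with all, B. subtilis, and E. coli and P1 controls. The 3 at least 20% lower became 5 with median centring and 0 with all or with the B. subtilis controls. They became 2 with the E. coli and P1 controls and 2 with probe sets averaged, where Cenpf (-0.25) no longer reached this size. The share of all genes past 25% upward or 20% downward was not counted in these alternatives. Scaling to all, B. subtilis, and E. coli and P1 controls adds 0.15, 0.20 and 0.08 to every gene, so those counts are no result about the members alone. At 1.5-fold and 2-fold the counts of higher and of lower members were both 0. Of the named genes at least 25% higher or 20% lower as reported, none changed direction in any alternative that held a value, while genes with smaller differences did, such as E2f1 (-0.013) with plain probe sets and Cdk1 (0.034) with the B. subtilis controls.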
